A study of Mus musculus with 4 samples.

Results

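The molecular chaperones and folding factors of mouse embryonic stem cells were examined in 4 polyA RNA sequencing libraries. The 37 genes were taken by gene symbol from a list of sensors and targets of the unfolded protein response, cytosolic heat shock proteins and mitochondrial chaperonins. All 37 were found among the 25170 gene rows of each deposited table. All 37 also reached at least 1 FPKM (a fragment count scaled by transcript length and library depth) in at least 1 library, as did 13142 of all rows. Each group was a single library, which is thus both the sample and the group. SO was cells of wild-type genotype under an inhibitor treatment, named only as SO; what the letters stand for, the dose and the time were not stated. Ldha_KO carried a knockout of Ldha and Ldhb_KO a knockout of Ldhb, the genes of the A and B subunits of lactate dehydrogenase. WT was the wild-type line, described as E14. All groups were grown on gelatin in medium with fetal bovine serum and LIF and carry the same note of normal culture, SO included. The labels state neither the number of knockout clones nor how the alleles were made. With 1 library per group no difference has a replicate check, an error or a p-value, and each compares libraries rather than conditions. The 3 comparisons with WT share that 1 library, so a high or low value in WT enters all of them.

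Proteins that enter the endoplasmic reticulum (ER) are folded there by lumenal chaperones, and proteins that fail to fold are exported and degraded. When folding capacity is exceeded, the ER membrane sensors IRE1, ATF6 and PERK start the unfolded protein response: IRE1 splices Xbp1 mRNA, ATF6 and XBP1 raise transcription of chaperone genes, and PERK phosphorylates the initiation factor eIF2alpha, which favours translation of ATF4 and its target genes. In the cytosol the corresponding programme is the heat shock response, in which HSF1 activates genes for Hsp70, Hsp90 and their cofactors. Pluripotent stem cells express many cytosolic chaperones at high levels.

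The main features of the chaperone genes were as follows. In Ldhb_KO 11 of the 14 lumenal chaperone and isomerase genes lay below WT, beside 70.9% of all genes with a mean of at least 20 FPKM. Hspa5 was at 234 against 337 FPKM. Of the constitutive cytosolic Hsp70 system, Hspa8, Hsph1 and Dnaja1 were below WT, Hsph1 at 26.3 against 55.9 FPKM. In the same library the ER degradation gene Herpud1 lay above WT, at 31.0 against 22.0 FPKM. In SO and Ldha_KO, Herpud1 was low (11.3 and 10.4 FPKM) while most lumenal chaperones were close to WT. The mitochondrial chaperonin genes Hspd1 and Hspe1 were lower than in WT in all 3 other libraries, by less than 2-fold. So were 73.8%, 70.2% and 70.9% of all genes with a mean of at least 20 FPKM in SO, Ldha_KO and Ldhb_KO. The small heat shock gene Hspb8 was higher than in WT in all 3.

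The 37 genes summed to 9297, 9509, 8602 and 10712.5 FPKM in SO, Ldha_KO, Ldhb_KO and WT. This was 1.97%, 1.99%, 1.78% and 2.04% of all FPKM in the 4 libraries. Cytosolic Hsp90 made up the largest part, and Hsp90ab1 ranked 2 among all rows in WT. Over all rows the libraries summed to 471595 (SO), 477538 (Ldha_KO), 484528 (Ldhb_KO) and 526316 FPKM (WT). The number of reads per library was not stated. A relative depth was taken from the most common ratio between values under 0.2 FPKM in both libraries. It was 1.05, 0.995 and 1.05 times that of WT in SO, Ldha_KO and Ldhb_KO. Whether it reflects read depth or a normalised library size is not known. Over low genes near the common ratio, the ratio varied (central span between genes) by 0.0167% between SO and WT and by 0.219% to 0.603% between the other pairs. The labels name no batch, and the part of this in the differences between a knockout and WT was not tested. Ldha was at 154 FPKM in Ldha_KO, against 1774 in WT, and Ldhb at 5.74 FPKM in Ldhb_KO, against 76.5 in WT. All 10 embryonic stem cell markers were kept and summed to 6781, 6079 and 6838 FPKM in SO, Ldha_KO and Ldhb_KO and 6966 FPKM in WT. None was called against WT, with the lowest differences in Ldha_KO for Utf1 (-0.95) and Sox2 (-0.86) and the highest there for Klf4 (0.63). Tdgf1 was called lower in Ldha_KO against Ldhb_KO, by -1.06. Of 10 fibroblast markers, 5 were kept and summed to 66.3, 56.8 and 74.99 FPKM in SO, Ldha_KO and Ldhb_KO and 56.4 FPKM in WT; Dcn and Lum were listed at 0 throughout. Thy1 made up most of these sums and was below WT in all 3 as deposited, while Mmp2, Pdgfrb, Fbln2 and Col1a1 were above WT in all 3; Mmp2 was called in each and Pdgfrb in SO and Ldhb_KO. Of 11 endoderm markers, 6 were kept and summed to 212, 189 and 165 FPKM in SO, Ldha_KO and Ldhb_KO and 178 FPKM in WT. Sparc made up most of these sums, at 160 FPKM in WT. Col4a1 was called higher in SO and Ldha_KO. As deposited, Lama1 was slightly below WT in SO, as were Sox7 and Sparc in Ldha_KO, and the other kept markers were above it. In Ldhb_KO Gata4 and Lama1 were above WT, and Sox7, Dab2, Sparc and Col4a1 below it. The part of such cells in the results was not tested, and in bulk RNA fewer cells of a type and less RNA per cell cannot be told apart.

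**Figure D1:**
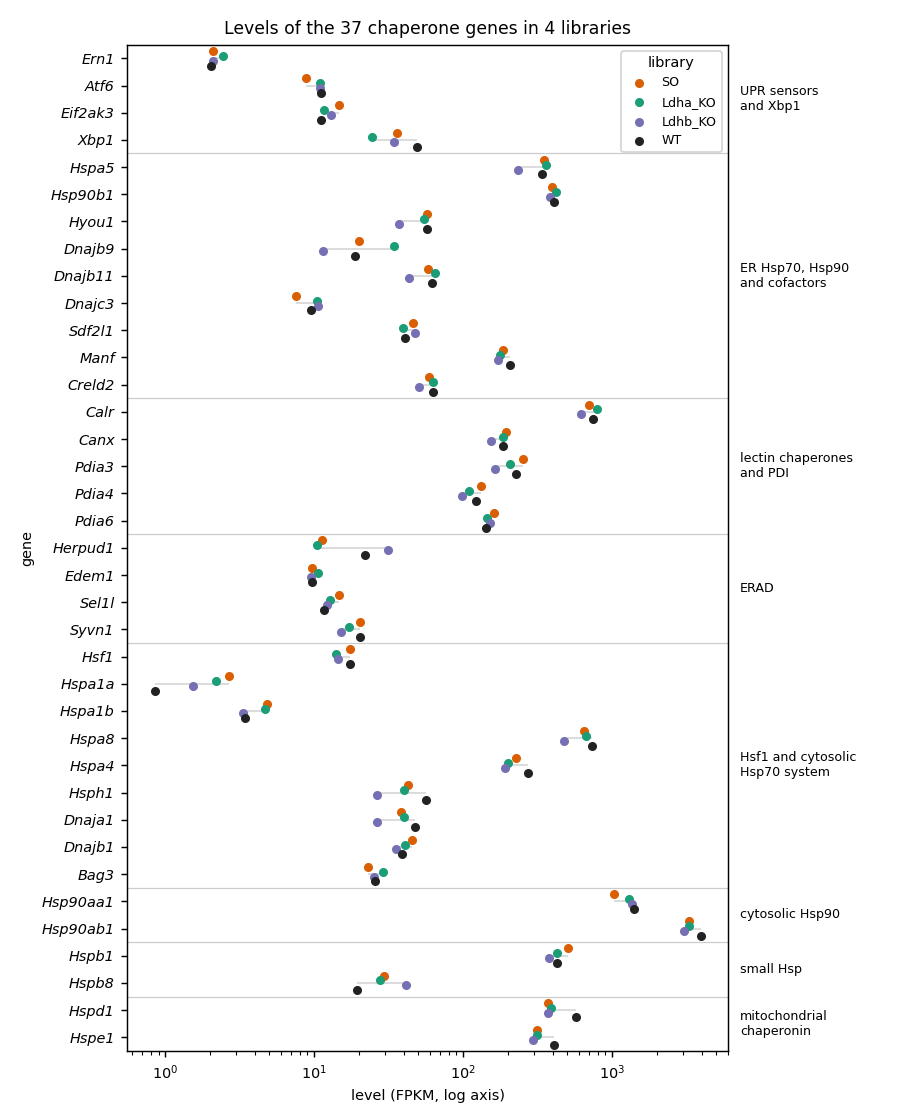
Level of each of the 37 chaperone genes (FPKM, log axis) in SO, Ldha_KO, Ldhb_KO and WT, 1 point per library, grouped by role. Hsp90ab1 is the highest, at 3058 to 3936 FPKM, and Hspa1a the lowest, at 0.848 to 2.68 FPKM; Dnajb9, Herpud1 and Hspa1a show the widest spans.

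Differences between libraries are given on the log2(FPKM + 1) scale, which understates changes of low genes, and calls needed a size of at least 1. Because of the added 1, a call takes more than a 2-fold change of FPKM, the more so the lower the gene: Hspa1a in SO, at 3.16 times WT, had a difference of 0.99 and was not called. In SO against WT, 0 of the 37 genes were called in either direction, beside 2.69% of all 13142 genes called higher and 0.472% called lower. In Ldha_KO against WT, 0 were called higher and 1, Herpud1, lower, beside 2.65% and 1.06% of all genes. In Ldhb_KO against WT, Hspb8 was called higher and Hsph1 lower, beside 3.36% and 1.09%. Between the knockouts, in Ldha_KO against Ldhb_KO, Dnajb9 was called higher and Herpud1 lower, beside 1.67% and 1.54%. Counts of 0 or 1 in 37 are near these shares, so they are no result about the chaperone genes as a set.

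Smaller differences did not spread evenly over the libraries. The median difference of the 37 genes was -0.015 in SO, -0.012 in Ldha_KO and -0.26 in Ldhb_KO against WT, and 0.15 in Ldha_KO against Ldhb_KO. Over all kept genes the medians were -0.035, -0.031, -0.022 and -0.022 in the same comparisons. Of the 37 genes, 26 had a mean of at least 20 FPKM over the 4 libraries, with medians of -0.082, -0.062, -0.34 and 0.19. All 4516 genes with such a mean had medians of -0.17, -0.14, -0.18 and 0.019. In Ldhb_KO 88.5% of the 26 lay below WT, beside 70.9% of the 4516. The other 11 genes had a median of 0.041 in Ldhb_KO. The level was the lowest of the 4 libraries in Ldhb_KO for 22 of the 37 genes (59.5%), against 28.5% of all kept genes and 36.9% of those with a mean of at least 20 FPKM, a class that 11 of the 37 are not in. When every library was rescaled to the summed FPKM of WT, Ldhb_KO still held the lowest value for 20 of 37. These counts describe 4 libraries and were not tested.

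Many differences were small enough for their sign to depend on scaling. Rescaling to the summed FPKM of WT raised the median of all genes to 0.10 (SO), 0.090 (Ldha_KO) and 0.082 (Ldhb_KO), and 23 differences of single members, at most 0.15 in size, changed sign. After it SO had 12 of 37 genes below WT, Ldha_KO 13 and Ldhb_KO 22, against 20, 21 and 28 as deposited. Differences of Hspa5, Hyou1, Dnajb9, Dnajb11, Hspa8, Hsph1 and Dnaja1 in Ldhb_KO were too large for this scaling to change their sign. That of Hspa5, for example, moved from -0.53 to -0.41.

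**Figure D2:**
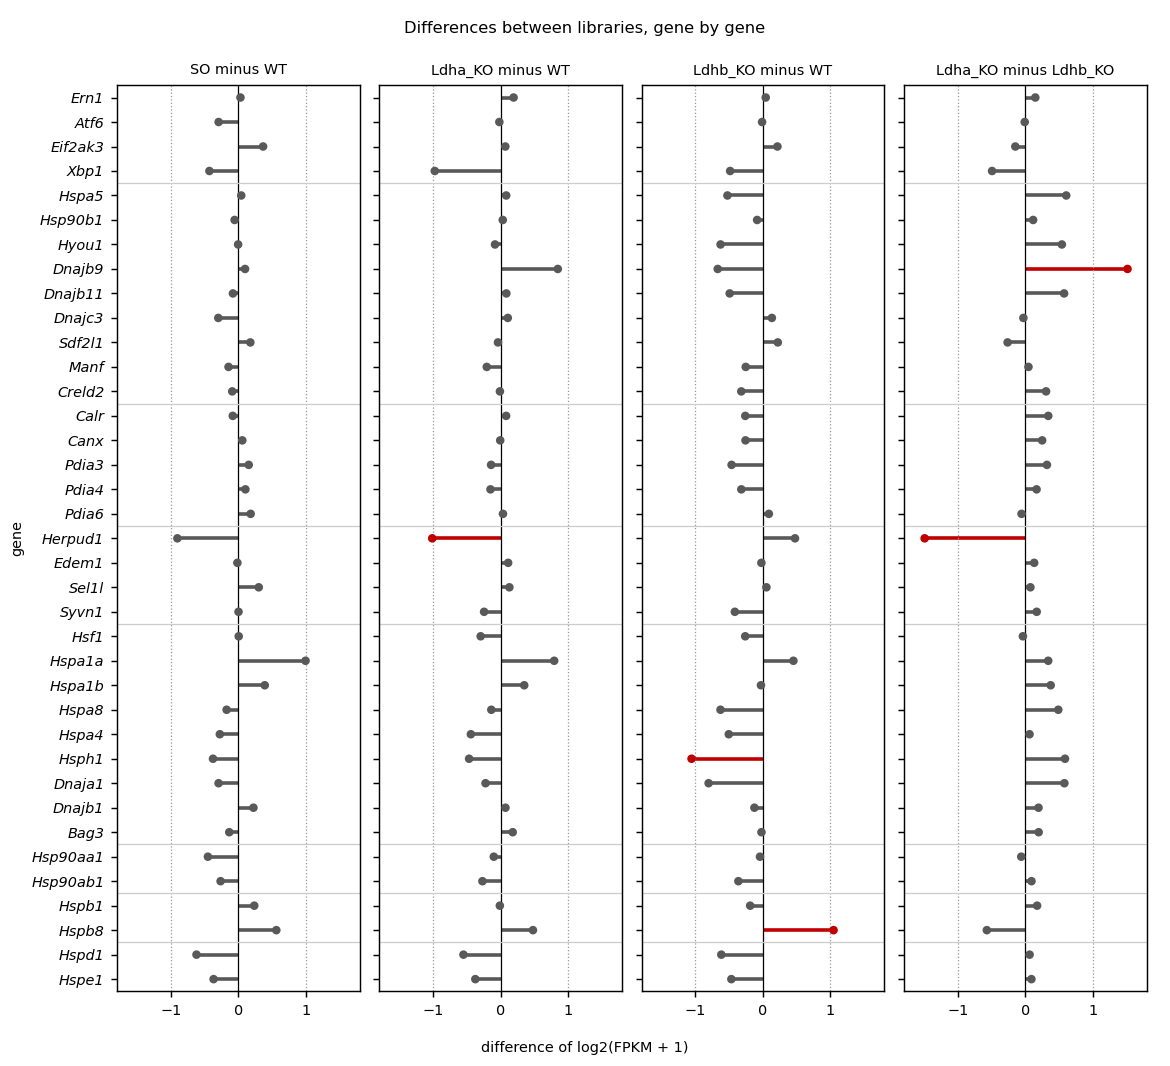
Difference of log2(FPKM + 1) for each chaperone gene in SO minus WT, Ldha_KO minus WT, Ldhb_KO minus WT and Ldha_KO minus Ldhb_KO; dotted lines mark a difference of 1 in either direction and red marks genes past it. In Ldhb_KO minus WT 28 of 37 genes lie below 0 (75.7%, beside 52.3% of all kept genes and 70.9% of those with a mean of at least 20 FPKM), and Herpud1 points down in SO and Ldha_KO and up in Ldhb_KO.

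The sensor genes of the unfolded protein response were at 2.01 to 14.6 FPKM, and none was called. Ern1, which encodes IRE1, was at 2.08, 2.44 and 2.10 FPKM in SO, Ldha_KO and Ldhb_KO and at 2.01 FPKM in WT. Atf6 was at 8.83, 10.9 and 10.95 FPKM in these libraries, with WT at 11.1 FPKM. Eif2ak3, which encodes PERK, was at 14.6, 11.7 and 13.0 FPKM, with WT at 11.1 FPKM. None of the sensor genes differed from WT by more than 0.37 on the log2 scale. The largest differences were in SO, at 0.37 for Eif2ak3 and -0.29 for Atf6. Xbp1, the transcription factor gene whose mRNA IRE1 splices, was below WT in all 3, at 35.9 FPKM in SO, 24.2 in Ldha_KO and 34.45 in Ldhb_KO, against 48.65 FPKM in WT. In Ldha_KO it was at 0.498 times WT, and its difference of -0.98 missed the call only through the pseudocount. Of all kept genes, 1.1% had a lower difference. The deposited values hold 1 number per gene, so spliced and unspliced Xbp1 were not told apart.

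Among lumenal Hsp70 and Hsp90 proteins and their cofactors, Ldhb_KO stood lowest for most genes. Hspa5, which encodes BiP, the Hsp70 of the ER and the classic target of the response, was at 347 FPKM in SO, 357 in Ldha_KO, 234 in Ldhb_KO and 337 in WT. The fold over WT was 1.03 in SO, 1.06 in Ldha_KO and 0.693 in Ldhb_KO. Hyou1, the nucleotide exchange factor of BiP, was at 57.3, 54.2 and 36.9 FPKM in SO, Ldha_KO and Ldhb_KO and at 57.5 FPKM in WT. Dnajb11, a J-domain cofactor that brings unfolded chains to BiP, was at 58.0, 65.2 and 43.4 FPKM, with WT at 61.4 FPKM. All 3 of these genes had their lowest value in Ldhb_KO, with differences from WT of -0.53, -0.63 and -0.49.

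Dnajb9, another J-domain cofactor of BiP (ERdj4) and a known XBP1 target, split the knockouts. It was at 34.4 FPKM in Ldha_KO and at 11.4 FPKM in Ldhb_KO, with SO at 20.0 and WT at 18.7 FPKM. The difference between the knockouts was 1.52, a 3.03-fold higher level in Ldha_KO, above that of 99.5% of kept genes. Against WT the differences were 0.85 in Ldha_KO and -0.67 in Ldhb_KO, on either side of WT and neither was called. Xbp1 itself was lowest in Ldha_KO, where Dnajb9 was highest.

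The remaining members of this group moved less. Hsp90b1, which encodes the ER Hsp90 GRP94, was nearly level at 393, 418 and 385 FPKM in SO, Ldha_KO and Ldhb_KO and 409 FPKM in WT. Manf, a small ER-resident and secreted protein, was at 185, 177 and 171 FPKM, with WT at 205 FPKM. Creld2 was at 58.9, 62.4 and 50.1 FPKM, with WT at 62.9 FPKM. Dnajc3 (p58IPK), a lumenal J-domain protein, and Sdf2l1, a partner of Dnajb11, lay slightly above WT in Ldhb_KO, at 10.6 against 9.56 FPKM and 47.5 against 40.7 FPKM. Of the 9 genes, SO had 6 below WT, Ldha_KO 4 and Ldhb_KO 7, with medians of -0.056, 0.031 and -0.32. Of all kept genes 54.3%, 53.2% and 52.3% lay below WT. The shares were 73.8%, 70.2% and 70.9% for those with a mean of at least 20 FPKM. Rescaled to the summed FPKM of WT, 1, 1 and 6 of the 9 were below it. Hsp90b1 in Ldhb_KO was then slightly above WT, by 0.033.

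Lectin chaperones, which hold glycoproteins during folding, and protein disulfide isomerases were also lowest in Ldhb_KO for most genes. Calr (calreticulin) was at 701, 786 and 620 FPKM in SO, Ldha_KO and Ldhb_KO and at 743 FPKM in WT. Canx (calnexin) was at 193, 184 and 155 FPKM, with WT at 185 FPKM. Pdia3, the isomerase that works with both lectins, was at 253, 206 and 165 FPKM, with WT at 228 FPKM. Ldhb_KO was the lowest library for each, with differences of -0.26, -0.26 and -0.46. Pdia4 was at 97.6 FPKM in Ldhb_KO and 122 FPKM in WT, and Pdia6 was the exception, at 151 against 142 FPKM. P4hb, the founding member of the isomerase family and not among the 37, was at 158 FPKM in Ldhb_KO and 213 FPKM in WT, with SO at 207 and Ldha_KO at 223 FPKM.

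Many of these genes carry the ER stress response element (ERSE) in their promoters, which ATF6 and XBP1 bind together with NF-Y. The table of RefSeq promoters (GRCm38.p6) covered 30 of the 37 genes with 35 windows. In the 250 bases before the start, the motif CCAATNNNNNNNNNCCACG was found on either strand in 8 of the 35 windows (22.9%), each of a different gene, against 0.113% of all 32851 windows. All 8 genes act in the ER. The 37 genes were chosen in part as known targets of the response, so a higher share than in all windows follows from that choice. The sites are shown because the element is the known site of this response; each is written in the direction of the motif, 5′ to 3′, with the fixed letters of the motif in capitals:
Hspa5: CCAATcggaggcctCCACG
Hsp90b1: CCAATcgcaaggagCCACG
Hsp90b1: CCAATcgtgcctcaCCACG
Calr: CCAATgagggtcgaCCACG
Canx: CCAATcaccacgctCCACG
Pdia6: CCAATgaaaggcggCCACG
Creld2: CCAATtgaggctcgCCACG
Dnajc3: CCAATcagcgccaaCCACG
Syvn1: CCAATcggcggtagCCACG
Hsp90b1 held 2 sites. In Ldhb_KO, Hspa5, Hsp90b1, Calr, Canx, Creld2 and Syvn1 of these 8 genes lay below WT (Hsp90b1 not after rescaling to the summed FPKM of WT), and Pdia6 and Dnajc3 above it. Of all kept genes 52.3% lay below WT there, and of those with a mean of at least 20 FPKM 70.9%. Dnajb11, Dnajb9, Pdia3 and Pdia4, below WT in Ldhb_KO as well, held no match, and Hyou1 is not in the table. The core TGACGTGG of the XBP1 site was in 0 of the 35 windows and in 0.563% of all, and a CCAAT box, which ERSE contains, in 68.6% of the 35 and 33.8% of all. A match of letters does not show binding.

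The 250 bases before the start of Hspa5, on the plus strand at chr2:34771840-34772089 of GRCm38.p6, show the element, in capitals, at positions -65 to -47 relative to the start:
Hspa5: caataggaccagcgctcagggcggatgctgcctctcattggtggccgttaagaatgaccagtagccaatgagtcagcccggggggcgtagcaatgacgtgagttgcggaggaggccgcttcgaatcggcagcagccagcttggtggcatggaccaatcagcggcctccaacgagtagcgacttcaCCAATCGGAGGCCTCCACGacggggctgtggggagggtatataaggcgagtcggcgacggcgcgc

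Genes of ER-associated degradation did not move as a set, and Herpud1 stood apart from the others. Herpud1 encodes a membrane protein that links the retrotranslocation machinery to the ubiquitin ligase of the ER. It was at 11.3 FPKM in SO, 10.4 in Ldha_KO, 31.0 in Ldhb_KO and 22.0 in WT, so that SO and Ldha_KO were near each other and below WT and Ldhb_KO was above it. The differences from WT were -0.90, -1.01 and 0.48. Between the knockouts the difference was -1.49, and 0.3% of kept genes had a lower one. The call in Ldha_KO against WT was marginal: the difference was -0.89 with libraries rescaled to the summed FPKM of WT and -0.98 with the median of all genes set to 0. The ligase itself, Syvn1 (Hrd1), was at 20.4, 17.0 and 15.0 FPKM in SO, Ldha_KO and Ldhb_KO and 20.4 FPKM in WT. Its adaptor Sel1l was at 14.6, 12.8 and 12.1 FPKM, with WT at 11.6 FPKM, and the mannosidase-like Edem1 at 9.60, 10.6 and 9.55 FPKM, with WT at 9.71 FPKM.

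Like Dnajb11, Dnajb9, Pdia3 and Pdia4, Herpud1 held no ERSE match in its promoter window. In its window lies an ERSE-II (ATTGGNCCACG), found in 10 of the 32851 windows and in no other of the 30 genes. The window also holds a match to the amino acid response element (TGATGNAA), the kind of site through which ATF4 acts. That element was found in 1 of the 35 windows of the chaperone genes (2.86%), against 3.45% of all windows. Its share was thus no higher than in all windows, and the match does not set Herpud1 apart. ERSE-II was added to the search after the values of Herpud1 were known, and on the reverse strand it contains a CCAAT box. A match of letters does not show binding, and any part of these sites in the levels of Herpud1 was not tested. The window, on the plus strand at chr8:94386179-94386428 of GRCm38.p6, is shown because it holds both, in capitals, the response element first (positions -112 to -105, reverse strand) and then ERSE-II (positions -52 to -42):
Herpud1: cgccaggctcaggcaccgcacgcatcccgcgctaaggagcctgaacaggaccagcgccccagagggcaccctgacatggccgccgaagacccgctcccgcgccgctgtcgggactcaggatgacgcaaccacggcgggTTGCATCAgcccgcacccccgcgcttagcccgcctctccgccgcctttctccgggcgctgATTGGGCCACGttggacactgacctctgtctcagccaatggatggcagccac

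Other signalling genes of the response, among them those downstream of PERK and ATF4, are set beside Herpud1 here. Ddit3 (CHOP), a transcription factor of prolonged stress, was at 8.90 FPKM in SO, 20.996 in Ldha_KO, 98.3 in Ldhb_KO and 15.6 in WT. Trib3, a CHOP target, was at 15.3, 10.3 and 39.9 FPKM in SO, Ldha_KO and Ldhb_KO and 20.98 FPKM in WT. Chac1, whose ATF4-driven product breaks down glutathione, was at 4.07, 2.34 and 42.4 FPKM, with WT at 17.1 FPKM. For each of Trib3, Chac1 and Herpud1, Ldhb_KO was above WT and SO and Ldha_KO were below it, while Ddit3 in Ldha_KO was above WT by 0.40. Atf4 mRNA was at 129.6, 218 and 264 FPKM, with WT at 213 FPKM. Atf3 did not follow, with 14.1 FPKM in Ldha_KO against 2.77 in SO, 5.14 in Ldhb_KO and 2.47 in WT. Ppp1r15a (GADD34), which reverses eIF2alpha phosphorylation, was at 32.8, 26.1 and 29.7 FPKM, with WT at 34.6 FPKM. Of the 21 kept genes of this list, 3 were called higher in Ldhb_KO (Ddit3, Chac1 and the low-level Creb3l3) and 0 lower, beside 3.36% and 1.09% of all genes. In Ldha_KO 1 was higher (Atf3) and 1 lower (Chac1), beside 2.65% and 1.06%. In SO 0 were higher and 1 lower (Chac1), beside 2.69% and 0.472%. These counts are of few genes and were not tested.

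**Figure D3:**
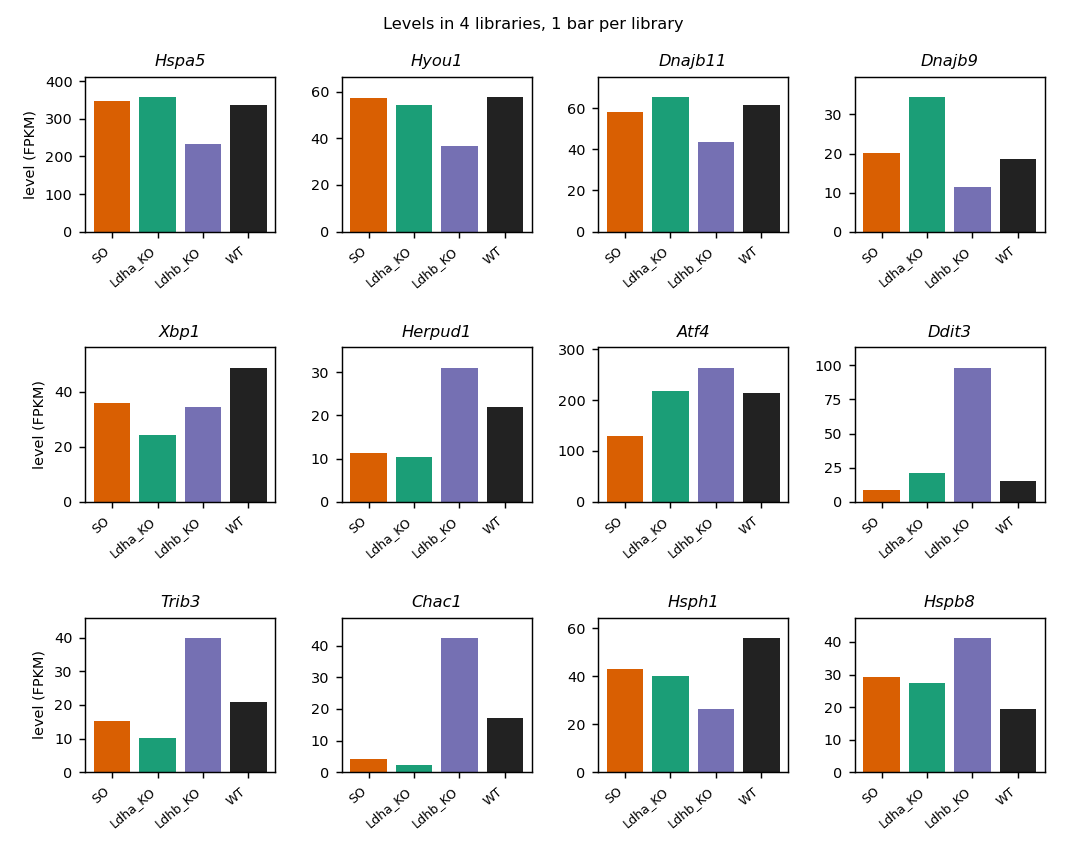
Levels (FPKM, bars from 0, 1 library per bar) of lumenal chaperone genes, Xbp1, Herpud1, ATF4 pathway genes, Hsph1 and Hspb8 in SO, Ldha_KO, Ldhb_KO and WT. Hspa5, Hyou1, Dnajb11 and Dnajb9 are lowest in Ldhb_KO (234, 36.9, 43.4 and 11.4 FPKM), where Herpud1, Ddit3, Trib3 and Chac1 are highest (31.0, 98.3, 39.9 and 42.4 FPKM).

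Ratios between genes of the same library do not depend on how libraries are scaled. The level of Hspa5 per Hsp90b1 was 0.884 in SO, 0.855 in Ldha_KO, 0.608 in Ldhb_KO and 0.825 in WT. Relative to Hsp90b1, Hspa5 was thus lowest in Ldhb_KO. Hyou1 per Hspa5 stayed between 0.152 and 0.171 in all 4 libraries, a narrow span. Dnajb9 per Hspa5 was 0.0962 in Ldha_KO and 0.0486 to 0.0577 in the other libraries. Herpud1 per Hspa5 was 0.0326 in SO, 0.0291 in Ldha_KO, 0.133 in Ldhb_KO and 0.0654 in WT.

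**Figure D4:**
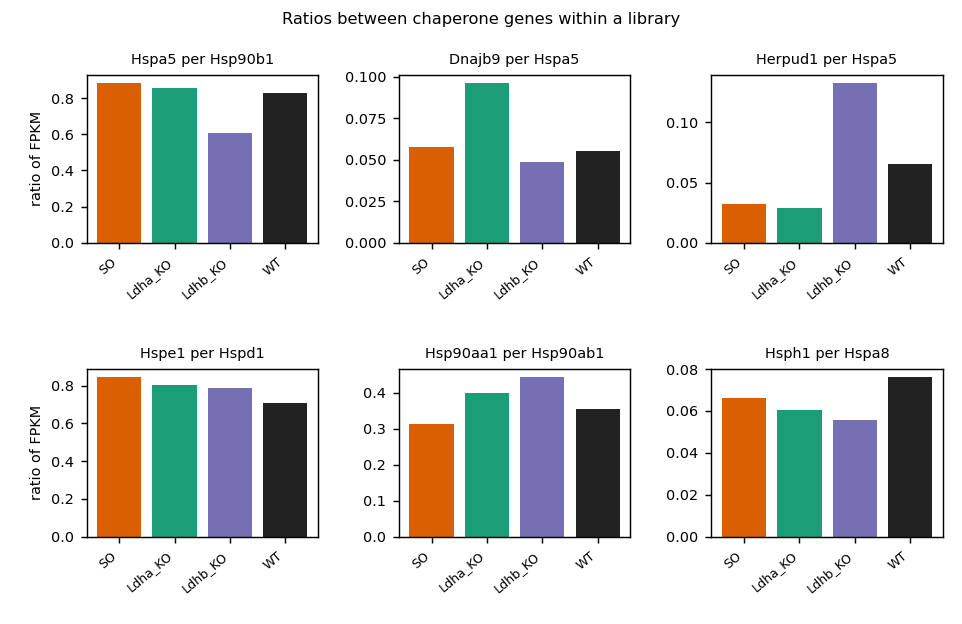
Ratios of FPKM between pairs of chaperone genes within each of SO, Ldha_KO, Ldhb_KO and WT, bars from 0, 1 library per bar. Hspa5 per Hsp90b1 is lowest in Ldhb_KO (0.608) and Herpud1 per Hspa5 is highest there (0.133), while Dnajb9 per Hspa5 is highest in Ldha_KO (0.0962).

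In the cytosol, the constitutive Hsp70 system was also lowest in Ldhb_KO. Hspa8 (Hsc70), the main Hsp70 of unstressed cells, was at 649, 665 and 473 FPKM in SO, Ldha_KO and Ldhb_KO and at 732 FPKM in WT. Hsph1 (Hsp110), an exchange factor of Hsp70, was at 42.8, 40.1 and 26.3 FPKM, with WT at 55.9 FPKM. Dnaja1, a J-domain cofactor, was at 38.2, 40.2 and 26.5 FPKM, with WT at 47.1 FPKM. All 3 genes were furthest below WT in Ldhb_KO, with differences of -0.63, -1.06 and -0.81. They were below WT in SO and Ldha_KO too. After rescaling to the summed FPKM of WT, however, Hspa8 was about level with WT in SO (-0.017) and in Ldha_KO (0.0015). Hsph1 was the gene called lower in Ldhb_KO, at 0.471 times WT. With libraries rescaled to the summed FPKM of WT its difference was -0.94, short of the rule. Hspa4, a further member of the Hsp110 family, was at 225, 200.4 and 192 FPKM, with WT at 272 FPKM.

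The other genes of the system shared no single order of libraries. Hspa1a and Hspa1b, neighbouring genes for the inducible Hsp70, were low in every library. Hspa1a was at 2.68 FPKM in SO, 2.20 in Ldha_KO, 1.53 in Ldhb_KO and 0.848 in WT, and Hspa1b at 4.81, 4.65, 3.34 and 3.43 FPKM. Hspa1a in WT was under the filter of 1 FPKM. Of the 50-base windows of the Hspa1a transcript, 58.8% also occur in Hspa1b (GENCODE M21), so reads may be shared and each value is uncertain; summed, the pair differed from WT by 0.69 in SO, 0.57 in Ldha_KO and 0.15 in Ldhb_KO. Hspa1a in SO, at 0.99, was the member closest to a call in that comparison. With a pseudocount of 0.1 its difference was 1.55 in SO and 1.28 in Ldha_KO. Dnajb1, a heat-inducible J-domain cofactor, was at 45.6, 40.95 and 35.6 FPKM in SO, Ldha_KO and Ldhb_KO and 38.9 FPKM in WT. Bag3, a cochaperone of selective autophagy, was at 23.05, 28.9 and 25.02 FPKM, with WT at 25.4 FPKM. Hsf1, the regulator of the response, was at 17.45, 13.98 and 14.3 FPKM, with WT at 17.4 FPKM.

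The cytosolic Hsp90 genes were the most abundant members. Hsp90ab1, the constitutive form, was at 3277, 3263 and 3058 FPKM in SO, Ldha_KO and Ldhb_KO and 3936 FPKM in WT. Hsp90aa1, the inducible form, was at 1025, 1307 and 1360.5 FPKM, with WT at 1402 FPKM. Both were below WT in all 3 libraries, by at most 0.45 on the log2 scale, and the ratio of Hsp90aa1 to Hsp90ab1 ran from 0.313 in SO to 0.445 in Ldhb_KO. Rescaled to the summed FPKM of WT, Hsp90aa1 was above WT by 0.038 in Ldha_KO and 0.076 in Ldhb_KO, so only Hsp90ab1 stayed below WT in all 3.

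Small heat shock proteins hold unfolded chains without ATP. Hspb8, which works with Bag3, was at 29.2 FPKM in SO, 27.5 in Ldha_KO, 41.2 in Ldhb_KO and 19.4 in WT. WT was the lowest library, and Ldhb_KO, at 2.12 times WT, was called higher. Hspb1 (Hsp25) was at 503, 424 and 375 FPKM, with WT at 427 FPKM. From the list of other cytosolic chaperones, which was not restricted to the 37, the neighbouring small heat shock genes Cryab and Hspb2 were called higher in SO and Ldha_KO. Cryab was at 14.48, 11.1 and 4.87 FPKM in SO, Ldha_KO and Ldhb_KO and 2.41 FPKM in WT. Hspb2 was at 16.3, 18.2 and 8.98 FPKM, with WT at 3.72 FPKM, and was called in all 3. Hspb6 was called higher only in Ldhb_KO, at 16.3 FPKM against 7.10 FPKM in WT, with SO at 5.06 and Ldha_KO at 4.804 FPKM. Of the 40 kept genes of this list, 2, 3 and 2 were called higher and 0 lower in SO, Ldha_KO and Ldhb_KO. Over all genes 2.69%, 2.65% and 3.36% were called higher and 0.472%, 1.06% and 1.09% lower. The counts are of few genes and were not tested. Besides Cryab, Hspb2 and Hspb6, the call was Dnaja4 in Ldha_KO, at 2.77 FPKM against 0.648 FPKM in WT.

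The mitochondrial chaperonin Hsp60 and its lid Hsp10 are encoded by Hspd1 and Hspe1, which lie head to head. Hspd1 was at 370.3, 389 and 371 FPKM in SO, Ldha_KO and Ldhb_KO and at 570.2 FPKM in WT. Hspe1 was at 314, 312 and 293 FPKM, with WT at 405 FPKM. For both genes the 3 libraries were close to each other and below WT, with differences of -0.62, -0.55 and -0.62 for Hspd1 and -0.37, -0.38 and -0.47 for Hspe1. Of all genes with a mean of at least 20 FPKM, 73.8%, 70.2% and 70.9% lay below WT in these libraries. Rescaled to the summed FPKM of WT, the differences were -0.46, -0.41 and -0.50 for Hspd1 and -0.21, -0.24 and -0.35 for Hspe1. They were too large for this scaling to change their sign. Hspa9, the mitochondrial Hsp70, did not share the pattern, at 282, 346 and 377 FPKM, with WT at 375 FPKM. Of 17 kept genes of mitochondrial proteostasis, 0 were called in any comparison. Over all kept genes, 0.472% to 3.36% were called in a given direction. A count of 0 in 17 is near these shares, so it is no result about the list.

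The heat shock element GAANNTTCNNGAA, the binding sequence of HSF1, was found in 0.466% of all promoter windows. Of the 35 windows of the 37 genes, 2 held it, 1 of Hspe1 and 1 of Hspd1. A further window of Hspd1, for another start at chr1:55088244-55088493, held 0 matches. The element is the same stretch of DNA read from either side, where 2 overlapping matches run on opposite strands. The windows of the Hsp70 and Hsp90 genes in the table held no exact match to these letters, and no match says nothing about HSF1 there. The window of Hspe1, on the plus strand at chr1:55087898-55088147 of GRCm38.p6, is shown as the promoter that both genes share, with the overlapping matches in capitals at positions -89 to -72:
Hspe1: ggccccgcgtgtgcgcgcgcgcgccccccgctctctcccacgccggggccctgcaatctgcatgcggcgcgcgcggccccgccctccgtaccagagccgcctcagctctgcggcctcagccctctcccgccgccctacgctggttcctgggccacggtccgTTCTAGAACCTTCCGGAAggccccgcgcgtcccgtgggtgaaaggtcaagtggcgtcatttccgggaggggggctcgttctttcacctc

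Other folding machinery was examined in lists set beside the 37 genes. The 14 genes of the cytosolic chaperonin TRiC and of prefoldin, which fold actin and tubulin, lay below WT in 14 of 14 cases in SO and in 13 of 14 in each knockout. Among all genes with a mean of at least 20 FPKM, 73.8%, 70.2% and 70.9% lay below WT in SO, Ldha_KO and Ldhb_KO. Their medians were -0.39 (SO), -0.29 (Ldha_KO) and -0.21 (Ldhb_KO), with 0 called, and that of Ldhb_KO is near the -0.18 of such genes. Rescaled to the summed FPKM of WT, 12, 13 and 9 of 14 lay below WT, with medians of -0.23, -0.15 and -0.094. Cct6a had the largest difference in SO, at 397 FPKM against 613 FPKM in WT. ER translocation genes (23 kept) had medians of -0.12, -0.11 and -0.23 with 0 called. Other ER folding genes (27 kept) had medians of 0.018, 0.11 and -0.022, and 1 was called. That gene was Ero1l, the oxidase that recharges the isomerases and a known hypoxia target, higher in Ldhb_KO at 54.4 FPKM against 24.3 FPKM in WT, with SO at 43.7 and Ldha_KO at 42.4 FPKM. Other ERAD genes (22 kept) had medians of -0.014, 0.061 and -0.18. Against WT 0 of them were called. Between the knockouts Selenos, an ER membrane partner of the degradation machinery, was called higher in Ldha_KO, at 28.4 FPKM against 12.5 FPKM in Ldhb_KO, beside 22.7 in SO and 21.2 FPKM in WT. Over all kept genes 2.69%, 2.65% and 3.36% were called higher than WT in SO, Ldha_KO and Ldhb_KO, and 0.472%, 1.06% and 1.09% lower. Between the knockouts 1.67% were called higher in Ldha_KO. Counts of 0 or 1 in lists this small are no result about them as sets.

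**Figure D5:**
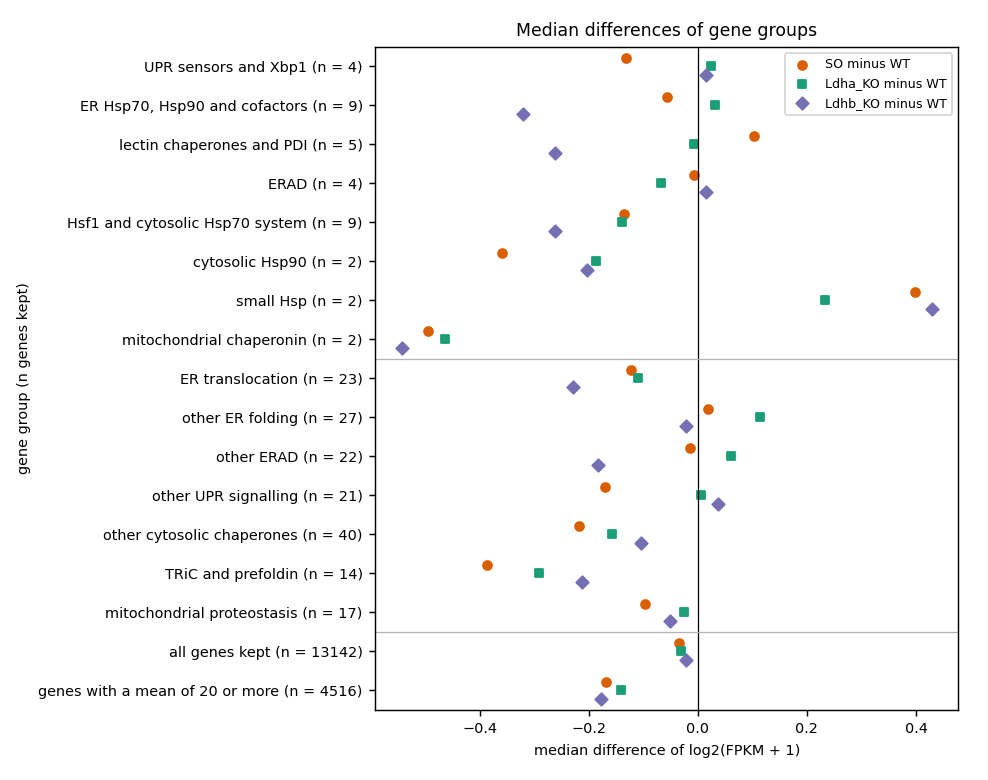
Median difference of log2(FPKM + 1) from WT in SO, Ldha_KO and Ldhb_KO for the role groups of the 37 genes (top), the other folding lists (middle) and all kept genes or those with a mean of at least 20 FPKM (bottom). The mitochondrial chaperonin lies at -0.49, -0.46 and -0.54 in SO, Ldha_KO and Ldhb_KO, and lumenal Hsp70, Hsp90 and cofactors at -0.056, 0.031 and -0.32.

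Several members have near-identical copies in the genome, which bears on their levels. Of the 37, 20 had no 50-base window of their longest coding transcript in any other GENCODE M21 gene, Hspa5, Herpud1, Hsph1, Hspb8 and Xbp1 among them. Another 8 shared more than 25% of windows with other genes: Hspa8 (74.8%), Hspa1a (66.3%), Hspa1b (62.3%), Hsp90aa1 (58.5%), Hspb1 (51.6%), Hspe1 (44.8%), Hspd1 (44.8%) and Dnaja1 (28.8%). Dnajb9 shared 5.8%. Pseudogenes of these genes could take or lend reads, so the levels of the 8 are less certain. The sources used here do not say how the authors' counting treated such reads.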

How the data were processed

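The data are 4 polyA RNA libraries from cultured mouse stem cells, with 1 for each group. The submitters' processing notes name HTSeq 0.11.2, edgeR 3.26.8, Bowtie2 2.3.4.3, SAMtools 1.9 and build mm9, but no roles. The deposited values were read as FPKM made by the authors, from the values alone: they are not whole numbers and their steps differ between genes. RPKM could not be told apart from FPKM.

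Differences are of log2(FPKM + 1), a pseudocount of 1, between 2 libraries, over genes with at least 1 FPKM in at least 1 of the 4 libraries. A difference of 1 or more in size was called. No interval was computed, since read totals were not stated. The 37 genes, their role groups and the other lists were chosen with earlier results of these data known. All 37 may be named; from the 7 other lists (169 genes, all found, 3 by synonym), called genes with at least 5 FPKM in the higher library, at most 4 per list and comparison, were named, with Atf4, Ddit3, Trib3, Ppp1r15a, Hspa9 and P4hb. Creb3l3, Dnaja4, Cct6a and single markers were named after their values were seen, and ERSE-II was added then.

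RefSeq promoters and GENCODE M21 transcripts are of GRCm38 and were matched by symbol only. Instead of protein identity, which was planned, transcript windows of 50 bases were compared. Alternatives were another pseudocount, other filters, other scalings and the sum of Hspa1a and Hspa1b. Work was done in Python 3.11.15 with pandas 2.3.3.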

Additional observations from a re-analysis of the deposited data

How the results depend on the processing

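Filters cannot move the difference of a single gene. Of 444 differences of single members under another pseudocount or scaling, 436 kept their side of the cut-off of 1, 5 passed it anew and 3 no longer did. Most were too small for these alternatives to carry them past it, so the 436 are no measure of stability. No called member turned its direction, nor could it under changes of this size. Rescaling libraries to the summed FPKM of WT moved the median of all genes to 0.10 (SO), 0.090 (Ldha_KO) and 0.082 (Ldhb_KO), and the median of the 37 genes to 0.13, 0.13 and -0.14. Only that of Ldhb_KO stayed below 0. Under that scaling members called were 1 higher in SO (Hspa1a, 1.11) and 0 lower in Ldha_KO (Herpud1, -0.89) and in Ldhb_KO (Hsph1, -0.94). With the median of all genes set to 0, 1 member was called higher in SO (Hspa1a, 1.03) and 0 lower in Ldha_KO (Herpud1, -0.98). With a pseudocount of 0.1, 1 was higher in SO and 1 in Ldha_KO, both being Hspa1a, and 2 were lower in Ldha_KO, Herpud1 and Xbp1 (-1.003). The same pseudocount called 808 genes higher and 182 lower over the whole table for SO, 868 and 321 for Ldha_KO, 1141 and 311 for Ldhb_KO, and 419 and 574 in Ldha_KO against Ldhb_KO. With a filter of 5 FPKM, 234 were higher and 40 lower in SO and 262 higher in Ldhb_KO, of 9770 genes kept. As deposited these counts were 353, 62 and 441 of 13142. The filter only took out low genes and changed no difference. The calls of Dnajb9 and Herpud1 between the knockouts and of Hspb8 in Ldhb_KO held in each alternative. No paired analysis was possible because each group holds 1 library. Depth in reads is not known, so values near 1 FPKM, such as Hspa1a and Ern1, carry unknown counting error.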

Other observations

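Chaperone genes outside every list, taken by symbol (Hsp, Dnaj, Pdia and Bag families, 27 kept), were looked at after the other values were known. In SO against WT 0 were called, in Ldha_KO 1 was higher and in Ldhb_KO 2 were higher, and 0 were lower in each. Over all kept genes 2.69%, 2.65% and 3.36% were called higher and 0.472%, 1.06% and 1.09% lower. Counts this small are no result about the 27 genes as a set. The medians of the 27 were -0.028, -0.023 and -0.10. Hspb11, an intraflagellar transport gene named for its likeness to small heat shock proteins, was at 14.8 FPKM in SO, 14.7 in Ldha_KO, 25.2 in Ldhb_KO and 7.66 in WT. Dnajc5g was at 0.6004, 4.54 and 4.18 FPKM in SO, Ldha_KO and Ldhb_KO and 0.913 FPKM in WT.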
